A study of Homo sapiens with 6 samples.

Results

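K562 is an established human line derived from the pleural effusion of a patient with chronic myeloid leukemia in blast crisis, and it carries the BCR-ABL fusion. The comparison described here is between K562 cells with an shRNA against METTL14 (labelled METTL14 knockdown, shMETTL14 below) and K562 cells with a lentiviral nonsense control shRNA (labelled WT, shCTR below), with 2 libraries in each group. The members are the 17686 genes that passed a filter on low counts in the table of deposited read counts, out of 61661 identifiers, and the 4 libraries compared are from a series of 6. The other 2 libraries are of K562 cells with an shRNA against METTL3 (shMETTL3), which entered the same fit. All cells were grown in RPMI 1640 to log phase, and RNA was enriched with oligo(dT) before sequencing. The labels do not say that libraries of a group came from separate cultures, so p-values measure only the spread between these samples. The study's methods describe lentiviral infection and puromycin selection for the METTL3 and control lines. How the METTL14 line was made, and whether it is a clone or a selected pool, is not given in the sources used here.

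N6-methyladenosine (m6A) is the commonest internal mark of eukaryotic mRNA. It is written by a complex in which METTL3 carries the catalytic site, METTL14 holds the RNA and keeps METTL3 in an active shape, and WTAP, VIRMA, ZC3H13, CBLL1, RBM15 and RBM15B place the complex on its transcripts. FTO and ALKBH5 remove the mark, and YTH-domain proteins bind it and alter the decay, splicing or translation of the marked RNA. The RNA level measured here does not show methylation. Since the libraries are bulk RNA, fewer cells of a type and less RNA per cell cannot be told apart.

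Depth was even, between 19529461 and 20115304 reads a library over the 4 libraries. K562 markers were read in every library, at very different levels: GATA1 had between 4942 and 5650 reads and TFRC between 14600 and 17675. Among globin markers of the line, HBE1 had 3904 to 5456 reads, HBG2 125 to 138, HBZ 103 to 130 and HBG1 only 10 to 20. Of markers of other lineages, CDH5, ELANE, KRT5 and TTR had no read in the 4 libraries. CD3E, CD2, MPO and CD14 had at most 3 reads in a library, whereas LYZ (830 to 1273 reads), EPCAM (799 to 1083) and CD3D (62 to 92) were present in all of them. The mitochondrially encoded share of reads was 3.37% and 3.36% in shCTR and 3.70% and 3.78% in shMETTL14 libraries.

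METTL14 (ENSG00000145388, hg38 chromosome 4 from 118685368 to 118715433, plus strand) was lower in both shMETTL14 libraries, and the groups did not overlap. Its level was 33.7 ± 0.719 CPM (reads scaled to a common library size, SD, n = 2) in shCTR and 19.9 ± 1.08 CPM (SD, n = 2) in shMETTL14 cells, or 0.589 of the control level (log2 fold change -0.76 ± 0.09 (SE), adjusted p = 1.4e-05; p-values are from quasi-likelihood tests in edgeR and were adjusted over all genes tested by the Benjamini-Hochberg method). The ± after each log2 fold change is its SE. The call held with any 1 of the 4 libraries left out. Of the 8 writer genes, RBM15B, which guides the complex to its RNA, was the other one called: it had 691 and 777 reads in shCTR against 919 and 908 in shMETTL14 cells (log2 fold change 0.30 ± 0.08 (SE), adjusted p = 0.0273), a rise that rests mostly on shCTR library 1, the lower of its controls. It was 0.20 without shCTR library 1 (not called), and DESeq2 did not call it. METTL3, the catalytic subunit, had 1788 and 1728 reads in shCTR against 1731 and 1498 in shMETTL14 cells and was not called (log2 fold change -0.14 ± 0.08 (SE), adjusted p = 0.323). WTAP was at 0.02, VIRMA at 0.06, ZC3H13 at 0.07, RBM15 at 0.12 and CBLL1 at -0.09 on the log2 scale, none called. Neither eraser was called, with ALKBH5 at 0.17 and FTO at 0.02, and by DESeq2 neither was called either, while 1 had an unadjusted p under 0.05. ALKBH5 was 0.26 without shCTR library 2 (called). Of the 15 m6A readers edgeR called none, 4 had an unadjusted p under 0.05 and DESeq2 called 1. Their values ran from -0.197 to 0.197, with YTHDF1 at -0.20 and YTHDF3 at 0.20, both of which bind m6A in the cytoplasm. RBMX, which binds near the mark, was just outside the threshold (log2 fold change -0.18 ± 0.06 (SE), adjusted p = 0.0512).

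In shMETTL14 cells 607 genes were called higher and 577 lower, so 6.69% of all genes tested were called, 3.43% higher and 3.26% lower. The changes were mostly modest. The median absolute log2 fold change was 0.463 among genes called higher and 0.359 among those called lower, and 127 and 47 of them respectively changed at least 2-fold in level (absolute log2 fold change of 1 or more). Of the called genes, 507 of the higher and 491 of the lower ones were protein coding, and 46 and 25 had identifiers outside the annotation. The 2 groups did not overlap in CPM for 606 of the higher and 576 of the lower genes, where 48.9% of all genes tested did not overlap. When libraries were scaled by their size alone and not by TMM, 743 genes were called higher and 443 lower, as the median of all genes then moved from -0.00014 to 0.0255 on the log2 scale. Many calls were lost with fewer libraries: 325 of the 1184 were kept without library 1, 374 without library 2 and 245 without either. The plot of all tested genes shows rises reaching further than falls at low levels, and small changes of either sign among abundant transcripts.

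**Figure D1:**
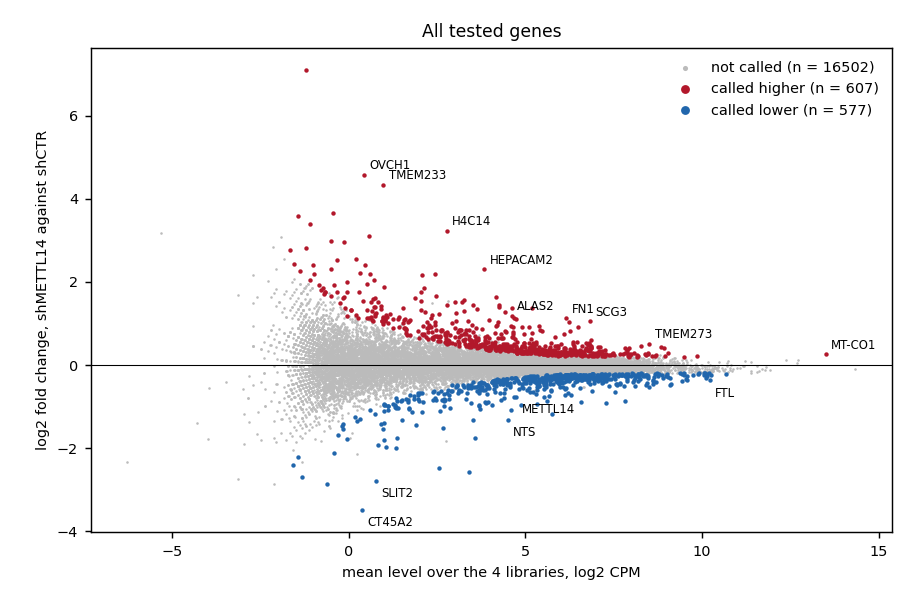
Each point is 1 of the 17686 tested genes, with the mean level over the shCTR and shMETTL14 libraries (log2 CPM) on the horizontal axis and the log2 fold change of shMETTL14 against shCTR on the vertical axis. The 607 genes called higher are red and the 577 called lower are blue. The topmost point is HAPLN1, which had no read in shCTR cells, METTL14 lies at -0.76, and MT-CO1, the most abundant called gene, at 0.27.

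The largest rises were in transcripts that were rare in control cells and that belong to no single pathway. OVCH1, a gene for an ovochymase-type protease, had 4 and 0 reads in shCTR against 53 and 49 in shMETTL14 cells (log2 fold change 4.58 ± 0.59 (SE), adjusted p = 4.66e-05), and the ratio of its summed reads was 25.3 with a counting interval of 9.58 to 94.6. TMEM233, a small membrane protein, had 6 and 1 reads in shCTR against 79 and 69 in shMETTL14 cells (log2 fold change 4.34 ± 0.42 (SE), adjusted p = 1.85e-06), a ratio of 21 with an interval of 9.92 to 53. For OVCH1 the second control library alone held no read. These 95% intervals are exact and cover counting error only. Both shMETTL14 libraries were close to each other for both genes, and both were far above either control. HEPACAM2, an adhesion protein of the immunoglobulin family, rose from 117 and 69 reads to 472 and 459 (log2 fold change 2.31 ± 0.16, adjusted p = 4.11e-08). AFP, the fetal liver plasma protein, rose from 27 and 33 reads to 143 and 129 (log2 fold change 2.16 ± 0.24). ENTPD3, which splits extracellular nucleotides, rose from 7 and 14 reads to 46 and 51 (log2 fold change 2.18 ± 0.35). RXFP1, the relaxin receptor, rose from 20 and 13 reads to 66 and 58 (log2 fold change 1.89 ± 0.30), and the cancer-testis gene CSAG2 rose from 15 and 10 reads to 60 and 45 (log2 fold change 2.05 ± 0.33). In each of these genes the lower shMETTL14 library was above the higher shCTR library, which the rule that chose them required. Each of these calls was kept with either shMETTL14 library left out.

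Noncoding RNAs were also among the 15 largest rises. LINC00261 rose from 140 and 203 reads to 522 and 553 (log2 fold change 1.63 ± 0.14). PCED1B-AS1 rose from 33 and 41 reads to 135 and 137 (log2 fold change 1.86 ± 0.20), and LINC02416 rose from 8 and 9 reads to 35 and 46 (log2 fold change 2.22 ± 0.38). MAGI1, a scaffold of cell junctions, rose from 25 and 46 reads to 116 and 103 (log2 fold change 1.61 ± 0.24). For TFF1, a secreted trefoil peptide, and RN7SL5P, a copy of the signal recognition particle RNA, the groups did not overlap but the 2 control libraries differed severalfold: TFF1 had 5 and 18 reads in shCTR against 28 and 62 in shMETTL14 cells, and RN7SL5P had 62 and 11 reads in shCTR against 110 and 140 in shMETTL14 cells. The log2 fold change of TFF1, 1.94 with all libraries, was 3.15 without shCTR library 2 (called) and 1.26 without shMETTL14 library 2 (not called), with no call without shCTR library 1 either, and that of RN7SL5P, 1.76, was 3.46 without shCTR library 1 (called) and 1.02 without shCTR library 2 (called). HIST2H2AA3 and DDT complete the 15 and are described with the genes that rest on 1 shMETTL14 library. Below the level of 1 CPM used for naming, HAPLN1, a link protein of the extracellular matrix chosen after its values were seen, had 0 reads in both shCTR libraries and 17 in each shMETTL14 library. Against a floor of 3 reads over the control group this is at least 11.2-fold higher.

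Among the largest falls were several cell-surface and secreted proteins. SLIT2, a secreted guidance cue, had 64 and 53 reads in shCTR against 10 and 7 in shMETTL14 cells (log2 fold change -2.78 ± 0.33 (SE), adjusted p = 1.97e-05). SDC1, the heparan sulfate proteoglycan syndecan-1, fell from 62 and 67 reads to 14 and 19 (log2 fold change -1.97 ± 0.28), and TMPRSS11F, a membrane serine protease, fell from 85 and 73 reads to 22 and 18 (log2 fold change -1.99 ± 0.27). CAV1, the main structural protein of caveolae, fell from 46 and 67 reads to 23 and 16 (log2 fold change -1.54 ± 0.29). NTS, the neurotensin precursor, fell from 684 and 577 reads to 257 and 256 (log2 fold change -1.31 ± 0.10). For these 5 genes every shMETTL14 library held fewer reads than either control, and the rule that chose them required that groups not overlap. ZBTB16, a transcriptional repressor of blood progenitors also known as PLZF, fell from 63 and 58 reads to 14 and 21 (log2 fold change -1.79 ± 0.29), and RGS18, a regulator of G-protein signaling in platelets and their precursors, fell from 83 and 77 reads to 32 and 32 (log2 fold change -1.33 ± 0.23). MGAT4A, which branches N-glycans, fell from 55 and 51 reads to 22 and 18 (log2 fold change -1.41 ± 0.31), and LGALS12, a galectin, fell from 42 and 48 reads to 21 and 19 (log2 fold change -1.18 ± 0.30). SLIT2, SDC1, TMPRSS11F, NTS, ZBTB16 and RGS18 stayed called with either shMETTL14 library left out. FAM157B, CFAP95, PCAT14, RGPD2 and ZNF528-AS1 were the other falls with both control libraries well above both knockdown libraries, at -1.75, -1.51, -1.39, -1.32 and -1.26 on the log2 scale. With 1 of the 4 libraries left out, ZNF528-AS1 ran from -1.64 to -0.96. RGPD2 and FAM157B belong to families of near-identical copies, between which reads may be split. The largest fall of all, CT45A2 at -3.49, rests on 1 control library: this cancer-testis gene had 5 and 86 reads in shCTR against 4 and 4 in shMETTL14 cells, and it too has near-identical neighbours. Its value was -0.30 without shCTR library 2 (not called).

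**Figure D2:**
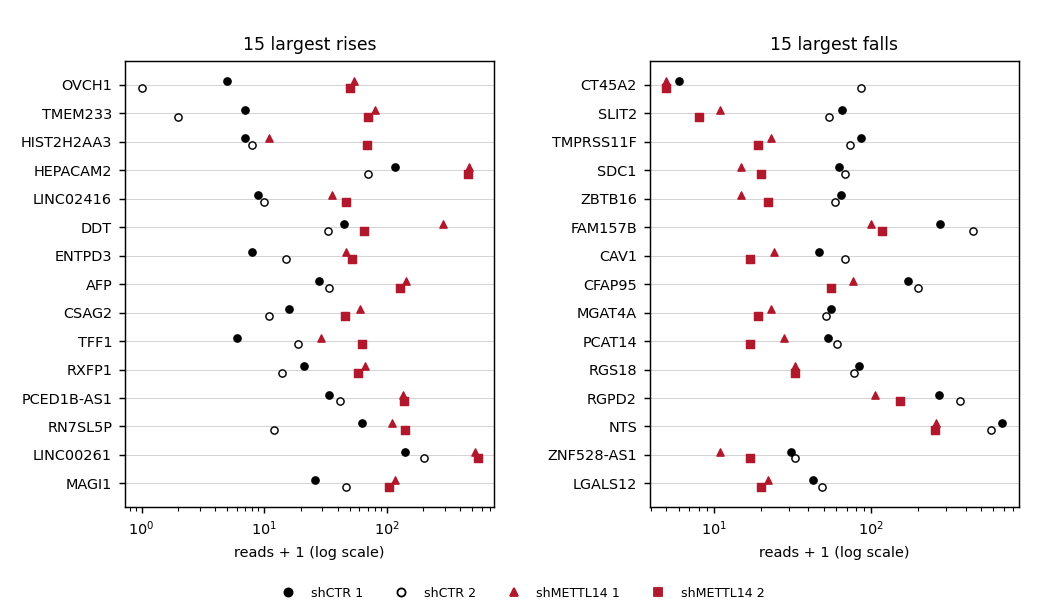
Reads plus 1 in each of the 4 libraries, on a log axis, for the 15 largest rises (left) and the 15 largest falls (right) among called genes with a mean of at least 1 CPM and no overlap between groups. In HIST2H2AA3 and DDT 1 shMETTL14 library lies near the controls, and in CT45A2 1 shCTR library lies near the shMETTL14 libraries. In SLIT2, SDC1 and NTS both shMETTL14 libraries lie well below both controls.

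Measured by reads rather than by fold, the largest rise was in MT-CO1, a mitochondrially encoded subunit of cytochrome c oxidase. It went from 212383 and 195714 reads to 245790 and 249921 (log2 fold change 0.27 ± 0.05 (SE), adjusted p = 0.001). Surface and cytoskeletal proteins followed. BSG, the surface glycoprotein basigin, rose from 7182 and 8104 reads to 10574 and 10187 (log2 fold change 0.43 ± 0.07). FSCN1, which bundles actin, rose from 7676 and 8406 reads to 10923 and 10642 (log2 fold change 0.41 ± 0.06), and FLNA, which crosslinks it, rose from 17140 and 16346 reads to 20264 and 18771 (log2 fold change 0.21 ± 0.06). TMSB10, a thymosin that binds actin monomers, rose from 4891 and 5220 reads to 6865 and 7214 (log2 fold change 0.46 ± 0.06), while its paralog TMSB4X fell from 12559 and 12460 reads to 8911 and 9586 (log2 fold change -0.45 ± 0.06). TMEM273 rose from 6057 and 5551 reads to 8317 and 8451 (log2 fold change 0.52 ± 0.06), and SCG3, a secretory granule protein of endocrine cells, rose from 1410 and 1461 reads to 3089 and 2945 (log2 fold change 1.06 ± 0.08). H1-2, LAPTM4B and TAFA2 also rose, by 0.19, 0.28 and 0.29 on the log2 scale. FTL, the light chain of the iron store ferritin, showed the largest fall in level: it fell from 25377 and 26541 reads to 19995 and 20730 (log2 fold change -0.36 ± 0.05). NPM1, RPS20, RPL19 and RPL12, all of the ribosome or its assembly, fell by 0.20, 0.30, 0.24 and 0.24. GLUL, glutamine synthetase, fell by 0.27, the histone chaperone NAP1L1 by 0.36, the fatty acid desaturase FADS1 by 0.39, CPED1 by 0.34 and HMGN1, a nucleosome-binding protein, by 0.48. MT-CO1, BSG, FSCN1, TMSB10, TMSB4X, TMEM273, SCG3, FTL, GLUL, NAP1L1, FADS1 and HMGN1 stayed called with either shMETTL14 library left out. FLNA lost its call when trends with GC content and transcript length were removed, at an adjusted p of 0.138.

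**Figure D3:**
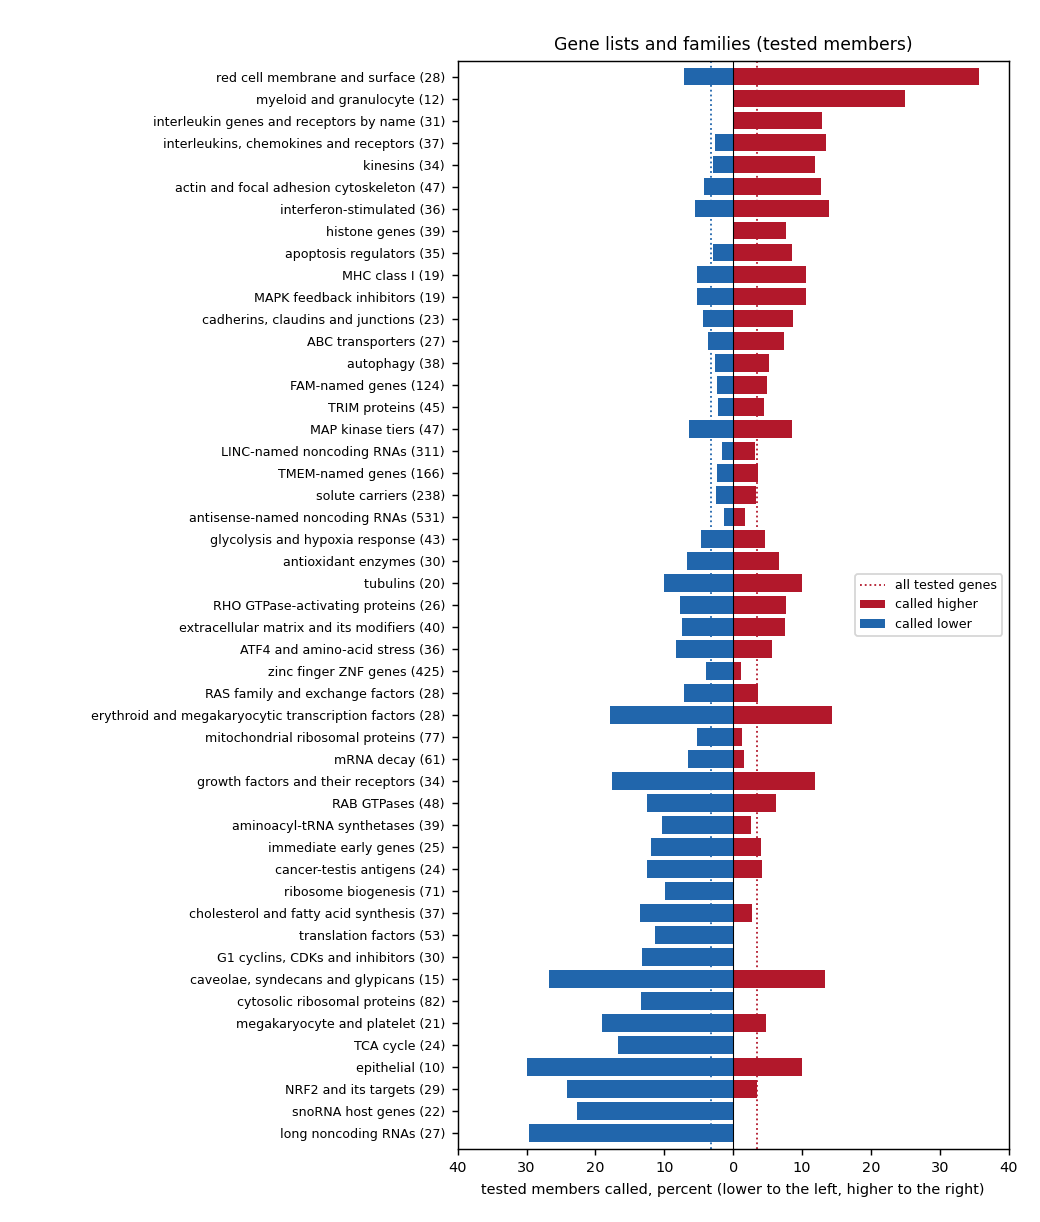
Percent of tested members called higher (red, right) and lower (blue, left) in shMETTL14 cells for each gene list or symbol family with at least 10 tested members and at least 3 calls (1 list is left out), with the number of tested members in parentheses and dotted lines at the 3.43% and 3.26% of all tested genes. Red cell membrane genes lie furthest to the right, with 35.7% called higher, and the lists of long noncoding RNAs and snoRNA host genes have no member called higher.

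Among the 60 gene lists and 29 symbol families examined, that of the red cell membrane had the highest share of members called higher. Of genes of the red cell membrane and surface, 10 of 28 tested members rose and 2 fell (median log2 fold change 0.12), or 35.7% and 7.14% where 3.43% and 3.26% of all genes tested were called. The list kept 5 of the 12 calls with either shMETTL14 library left out, and DESeq2 called 9 members higher and 2 lower. CD36, a scavenger receptor of early erythroid cells and platelets, rose from 196 and 201 reads to 406 and 438 (log2 fold change 1.07 ± 0.11, adjusted p = 4.14e-06). AQP3, a water and glycerol channel, rose from 1190 and 1250 reads to 2351 and 2316 (log2 fold change 0.92 ± 0.07). RHCE, which carries Rh blood group antigens, rose from 111 and 132 reads to 198 and 242 (log2 fold change 0.84 ± 0.15). RHD, the gene of the D antigen, rose from 113 and 106 reads to 164 and 152 (log2 fold change 0.52 ± 0.15). DMTN, ERMAP, GYPC, GYPE, SPTB and ANK1, proteins of the membrane skeleton and the red cell surface, rose by 0.54, 0.47, 0.36, 0.26, 0.25 and 0.20. ADD2, which links spectrin to actin, fell from 3838 and 3739 reads to 2703 and 2700 (log2 fold change -0.50 ± 0.06), and CD47, the surface signal against phagocytosis, fell from 3366 and 3135 reads to 2471 and 2371 (log2 fold change -0.44 ± 0.06). CD36, AQP3, DMTN, ADD2 and CD47 stayed called with either shMETTL14 library left out. RHD and RHCE are near-identical paralogs, and GYPE too has close paralogs, so reads may be split between them.

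Of 17 heme synthesis genes 2 rose and none fell, with 1 lower at an unadjusted p under 0.05 and 0 called lower by DESeq2. The share called higher was 11.8%, beside 3.43% of all genes. ALAS2, the erythroid enzyme of the first step, rose from 274 and 309 reads to 652 and 687 (log2 fold change 1.19 ± 0.09, adjusted p = 1.51e-07), and PPOX, of the second-last step, rose from 746 and 799 reads to 1067 and 1065 (log2 fold change 0.45 ± 0.08). Of 9 globins tested, HBE1, the embryonic beta-type chain, was the one called: it rose from 3904 and 4214 reads to 5413 and 5456 (log2 fold change 0.41 ± 0.07). Of iron genes, STEAP3, which reduces iron in the endosome, rose by 0.52, and FTL fell as given above. Transcription factors of the erythroid and megakaryocytic lineages moved in both directions: 4 of 28 tested members rose and 5 fell. These were 14.3% and 17.9% of the list, beside 3.43% and 3.26% of all genes. KLF1, the erythroid Krüppel-like factor, rose from 2538 and 2990 reads to 3405 and 3332 (log2 fold change 0.27 ± 0.07). NFE2 rose by 0.27 (0.20 without shCTR library 1), KLF3 by 0.28 and HHEX by 0.28. RUNX1 fell from 1345 and 1293 reads to 1038 and 1022 (log2 fold change -0.37 ± 0.07), and MYB, a factor of immature blood cells, fell from 5556 and 5250 reads to 4600 and 4485 (log2 fold change -0.26 ± 0.06). LMO2 fell by 0.25. GATA1 and TAL1 were not called, at -0.10 and 0.06. ALAS2, PPOX, HBE1 and STEAP3 stayed called with either shMETTL14 library left out. The call of KLF1 rests mostly on shCTR library 1, the lower of its controls: its value was 0.14 without shCTR library 1 (not called) and 0.42 without shCTR library 2 (called). With library size alone 5 of these factors rose and 3 fell.

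The promoters of called red cell genes are shown because erythroid genes are classically driven by GATA1, which binds GATA sites. RefSeq promoters (GRCh38.p14, 250 bases before to 50 after the start) were matched by symbol. The letters GATAA, searched on both strands, occur in 9 of the 21 matched promoters of the red cell list, and in 5 of the 8 of its members called higher, where 14.7% of the 11076 matched promoters of tested genes and 23.2% of all 27305 promoters hold them. Over all called genes they were in 16.3% of promoters of those higher and 18.4% of those lower. Neither of the 2 matched red cell members called lower holds GATAA. These promoters were not marked by GATAA alone. The TATA box letters TATAAA, also searched, were in 7 of the 21 and 4 of the 8, against 5.86% of tested genes. The 8 promoters had a median GC content of 54.2%, against 65.0% for tested genes, and its part in these matches was not tested. The 140 bases before the start of 6 genes follow, 5′ to 3′ on the gene's strand, with each match in capitals.
ALAS2, chrX:55030978-55031117, minus strand: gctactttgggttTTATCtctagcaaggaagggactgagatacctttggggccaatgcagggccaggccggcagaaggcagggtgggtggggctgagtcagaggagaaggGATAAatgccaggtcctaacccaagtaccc
KLF1, chr19:12887202-12887341, minus strand: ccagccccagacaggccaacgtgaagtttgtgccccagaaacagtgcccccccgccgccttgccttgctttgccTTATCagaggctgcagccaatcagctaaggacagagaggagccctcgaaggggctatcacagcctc
SPTB, chr14:64879908-64880047, minus strand: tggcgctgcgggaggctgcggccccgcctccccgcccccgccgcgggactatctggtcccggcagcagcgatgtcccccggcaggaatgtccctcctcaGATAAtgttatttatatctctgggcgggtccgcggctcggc
GYPE, chr4:143905560-143905699, minus strand: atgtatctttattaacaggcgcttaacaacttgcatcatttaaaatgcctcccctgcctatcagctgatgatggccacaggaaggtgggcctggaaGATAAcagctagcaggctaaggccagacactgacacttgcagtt
RHD, chr1:25272346-25272485, plus strand: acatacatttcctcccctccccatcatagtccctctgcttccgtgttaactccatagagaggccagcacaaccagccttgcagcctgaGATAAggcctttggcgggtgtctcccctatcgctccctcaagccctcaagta
RHCE, chr1:25420936-25421075, minus strand: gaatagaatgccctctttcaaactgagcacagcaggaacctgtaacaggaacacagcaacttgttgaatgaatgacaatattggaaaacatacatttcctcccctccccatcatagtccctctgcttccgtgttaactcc
ALAS2 has matches 127 and 30 bases before its start, and KLF1, SPTB, GYPE and RHD have 1 each within 66 bases. The windows of RHD and RHCE share a run of 53 bases, which ends at the annotated start of RHCE and lies further upstream in RHD, so their annotated starts differ. The printed RHCE window holds no match. A match describes letters in this window and is not a binding site.

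Of genes of megakaryocytes and platelets, 1 of 21 tested members rose and 4 fell (median log2 fold change -0.17), or 19% lower against 3.26% of all genes. The list kept 4 of the 5 calls with either shMETTL14 library left out. THBS1, thrombospondin, fell from 355 and 332 reads to 176 and 160 (log2 fold change -1.04 ± 0.12, adjusted p = 1.27e-05). RAB27B, which docks platelet granules, fell from 406 and 368 reads to 198 and 226 (log2 fold change -0.88 ± 0.12), PDGFB, a platelet growth factor, fell from 591 and 660 reads to 366 and 375 (log2 fold change -0.77 ± 0.11), and SRGN, the granule proteoglycan serglycin, fell from 60 and 62 reads to 31 and 33 (log2 fold change -0.94 ± 0.24). TUBB1, the platelet beta-tubulin, rose from 88 and 84 reads to 150 and 156 (log2 fold change 0.82 ± 0.15). Of caveolar proteins, syndecans and glypicans, 2 of 15 tested members rose and 4 fell (median log2 fold change -0.18). These were 13.3% and 26.7% of the list, beside 3.43% and 3.26% of all genes. Beside CAV1 and SDC1, CAV2 fell by 0.31 and CAVIN1, which coats caveolae, by 0.28, whereas EHD2, which sits at the caveolar neck, rose by 0.33 and the glypican GPC5 by 1.51. THBS1, RAB27B, PDGFB, TUBB1 and GPC5 stayed called with either shMETTL14 library left out.

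Of actin and focal adhesion genes, 6 of 47 tested members rose and 2 fell. These were 12.8% and 4.26% of the list, beside 3.43% and 3.26% of all genes. MARCKS, a membrane-bound actin regulator, rose from 1774 and 1715 reads to 2424 and 2578 (log2 fold change 0.51 ± 0.06), and the adhesion adaptor PXN rose by 0.28. VCL, vinculin, fell from 9142 and 7906 reads to 6784 and 6627 (log2 fold change -0.36 ± 0.06). Of extracellular matrix genes, 3 of 40 tested members rose and 3 fell (median log2 fold change 0.091), or 7.5% each way beside 3.43% and 3.26% of all genes. FN1, fibronectin, rose from 983 and 755 reads to 2000 and 1836 (log2 fold change 1.13 ± 0.11, adjusted p = 1.82e-06). The crosslinking enzyme LOXL2 rose by 1.11 and the protease inhibitor TIMP1 by 0.28, whereas the membrane metalloprotease MMP17 fell by 0.59 and the urokinase PLAU by 0.52. Without shCTR library 1 LOXL2 was 0.82 and TIMP1 0.20. Of 22 collagen genes, COL6A5 and COL15A1 rose, by 0.78 and 0.32, or 9.09% of them. No integrin was called by edgeR or DESeq2 among 15 tested, with 3 at an unadjusted p under 0.05. RAB GTPases, which direct vesicle traffic, moved both ways, with 3 of 48 higher (6.25%) and 6 lower (12.5%). RAB6A, of the Golgi, fell from 1929 and 1844 reads to 1153 and 1176 (log2 fold change -0.71 ± 0.07), RAB27A fell from 2922 and 2702 reads to 1768 and 1917 (log2 fold change -0.62 ± 0.07), and RAB31 fell from 5152 and 4902 reads to 3506 and 3679 (log2 fold change -0.50 ± 0.06). RAB3B rose from 23 and 17 reads to 57 and 51 (log2 fold change 1.42 ± 0.32), and RAB23 rose by 0.44. MARCKS, VCL, FN1, MMP17, COL6A5, RAB6A, RAB27A and RAB31 stayed called with either shMETTL14 library left out.

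Several transcripts of the translation machinery fell by small amounts. Of the 82 cytosolic ribosomal protein genes none was called higher and 11 were called lower, or 13.4% against 3.26% of all genes tested, with a median log2 fold change of -0.11 where the median of all genes was -0.00014. By edgeR 0 were higher at an unadjusted p under 0.05 and DESeq2 called none higher. With library size alone the median was -0.082 and 6 members were called lower, and with GC and length trends removed it was -0.10 and 18 were. Of the 11 calls 0 held with either shMETTL14 library left out, while the log2 fold change was negative in most members (76 of 82). RPL23A fell from 1282 and 1179 reads to 978 and 844 (log2 fold change -0.45 ± 0.08), RPL21 fell from 10008 and 9713 reads to 8288 and 8536 (log2 fold change -0.24 ± 0.06) and RPS20 fell from 23504 and 23993 reads to 18789 and 20101 (log2 fold change -0.30 ± 0.05). Many ribosomal protein genes have processed pseudogenes, which can take up some of their reads. Of ribosome biogenesis factors edgeR called none higher, with 1 at an unadjusted p under 0.05, and DESeq2 called none higher, and 7 of 71 fell, among them TAF1D, a part of the RNA polymerase I machinery, by 0.47 and TSR1 by 0.25. With library size alone 3 of them fell. Of translation factors edgeR called none higher, with 1 at an unadjusted p under 0.05, and DESeq2 called none higher, and 6 of 53 fell, such as EIF2B3 by 0.27 and EEF1B2 by 0.26. Of aminoacyl-tRNA synthetases 4 of 39 fell and 1 rose. The shares called lower were 9.86% of biogenesis factors, 11.3% of translation factors and 10.3% of synthetases, beside 3.26% of all genes. FARSB, which charges phenylalanine tRNA, fell from 1920 and 1821 reads to 1466 and 1382 (log2 fold change -0.41 ± 0.07), and VARS2, the mitochondrial valine enzyme, rose by 0.26, or 0.15 without shCTR library 1 (not called). Mitochondrial ribosomal proteins had 4 of 77 lower and 1 higher, a share of 6.49% that is near the 6.69% of all genes. TAF1D and FARSB stayed called with either shMETTL14 library left out.

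Several noncoding RNAs that host small nucleolar RNAs in their introns also fell. Of 22 SNHG genes none was called higher, by edgeR or by DESeq2, with 1 higher at an unadjusted p under 0.05, and 5 were lower (22.7%). SNHG1 fell from 8793 and 8519 reads to 6393 and 6985 (log2 fold change -0.38 ± 0.06), SNHG29 fell from 7551 and 7896 reads to 6227 and 6301 (log2 fold change -0.32 ± 0.06) and SNHG32 fell from 11375 and 12136 reads to 9275 and 9920 (log2 fold change -0.31 ± 0.06). In the wider list of 27 well-known long noncoding RNAs, which shares several of these hosts, 8 fell and none rose (by edgeR 1 was higher at an unadjusted p under 0.05, and DESeq2 called none higher). GAS5 fell from 8535 and 8419 reads to 6661 and 7446 (log2 fold change -0.28 ± 0.06), ZFAS1 fell from 347 and 341 reads to 243 and 253 (log2 fold change -0.48 ± 0.11), and MIR17HG, the host of an oncogenic miRNA cluster, fell from 1348 and 1220 reads to 922 and 1059 (log2 fold change -0.39 ± 0.08). Called lower were 22.7% of the SNHG genes and 29.6% of the wider list, beside 3.26% of all genes. SNHG1 stayed called with either shMETTL14 library left out. Of 311 LINC-named RNAs 10 rose and 5 fell (4.82% called), and of 531 antisense-named RNAs 9 rose and 7 fell (3.01%), beside the 6.69% of all genes.

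Of NRF2 and its antioxidant targets, 1 of 29 tested members rose and 7 fell (median log2 fold change -0.12), or 24.1% lower against 3.26% of all genes. DESeq2 called 7 lower, and 2 of the 8 calls held with either shMETTL14 library left out. ABCC3, an export pump for conjugates, fell from 509 and 496 reads to 324 and 315 (log2 fold change -0.67 ± 0.09), OSGIN1 fell from 321 and 369 reads to 265 and 214 (log2 fold change -0.54 ± 0.13), and AKR1C1, an aldo-keto reductase, fell from 3417 and 3285 reads to 2719 and 2532 (log2 fold change -0.36 ± 0.06). FTL is also a member of this list. Of antioxidant enzymes 2 of 30 rose, GLRX5 by 0.28 and MSRB1 by 0.33, and 2 fell, TXNRD1 by 0.23 and catalase (CAT) by 0.28. These were 6.67% each way, beside 3.43% and 3.26% of all genes. ABCC3 stayed called with either shMETTL14 library left out.

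In the citric acid cycle none of 24 genes rose by edgeR or DESeq2, with 0 higher at an unadjusted p under 0.05, and 4 fell. The share lower was 16.7%, beside 3.26% of all genes. CS, citrate synthase, fell from 5337 and 5042 reads to 4004 and 3991 (log2 fold change -0.39 ± 0.06), and the malic enzyme ME2 fell from 1402 and 1239 reads to 1012 and 1094 (log2 fold change -0.34 ± 0.07). IDH2 fell by 0.29 and IDH1 by 0.21. Of the respiratory chain, nuclear genes hardly moved: 1 of 38 genes of complex I (NDUFC1, -0.29) and 1 of 41 of complexes II to V (UQCRC2, -0.24) fell. For complex I edgeR called none higher, with 0 at an unadjusted p under 0.05, and DESeq2 called none higher, and for complexes II to V edgeR called none higher, with 0 at an unadjusted p under 0.05, and DESeq2 called none higher. Of 15 mitochondrially encoded genes MT-CO1 rose, as did MT-CYB, which rose from 1055 and 1261 reads to 1583 and 1499 (log2 fold change 0.40 ± 0.08), while MT-ND1 was at -0.09 and not called. MT-CYB was 0.25 without shCTR library 1 (not called). PPARGC1A, which encodes the coactivator PGC-1α, had 3 and 2 reads in shCTR and 2 in each shMETTL14 library, too few to pass the filter, and no difference was detectable at this depth. Of its network of 19 tested genes, ESRRB rose by 0.51 and POLG2 fell by 0.24, or 10.5% called beside the 6.69% of all genes. In cholesterol and fatty acid synthesis 1 gene of 37 rose, LSS by 0.22, and 5 fell. These were 2.7% and 13.5% of the list, beside 3.43% and 3.26% of all genes. ELOVL5, a fatty acid elongase, fell from 9239 and 8326 reads to 6446 and 6411 (log2 fold change -0.46 ± 0.06), ACSL1 fell from 742 and 664 reads to 482 and 481 (log2 fold change -0.56 ± 0.09), and SQLE fell by 0.26. CS, ELOVL5 and ACSL1 stayed called with either shMETTL14 library left out.

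In the amino-acid stress list, 2 of 36 tested members rose and 3 fell (median log2 fold change -0.046), or 5.56% and 8.33% beside 3.43% and 3.26% of all genes. ASNS, asparagine synthetase, fell by 0.24 (it was -0.15 without shCTR library 1, not called), MTHFD2 by 0.34 and DDIT4 by 0.34, and GDF15 rose from 6015 and 6550 reads to 7654 and 7636 (log2 fold change 0.27 ± 0.06). Of hypoxia and glycolysis genes 2 of 43 rose and 2 fell, or 9.3% called beside the 6.69% of all genes. NDRG1 rose from 229 and 257 reads to 506 and 457 (log2 fold change 0.97 ± 0.11) and EGLN1 rose by 0.28, and VEGFA fell from 5799 and 5929 reads to 4773 and 4781 (log2 fold change -0.31 ± 0.06). Of chaperones of the ER and the cytosol none of 37 rose by edgeR or DESeq2 (1 at an unadjusted p under 0.05), and HERPUD1 and HSPA9 fell, by 0.33 and 0.24. The share of chaperones called was 5.41%, near that of all genes. Of 38 autophagy genes GABARAPL1 (0.37) and ULK1 (0.24) rose and WIPI1 (-0.31) fell, or 7.89% called beside the 6.69% of all genes. MTHFD2 and NDRG1 stayed called with either shMETTL14 library left out.

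Of the cyclins, kinases and inhibitors of G1, none of 30 rose by edgeR or DESeq2, with 3 higher at an unadjusted p under 0.05, and 4 fell. The share lower was 13.3%, beside 3.26% of all genes. CCND1, cyclin D1, fell from 726 and 780 reads to 428 and 350 (log2 fold change -0.97 ± 0.10, adjusted p = 2.74e-06), and CCND3 fell from 6588 and 7037 reads to 5867 and 5650 (log2 fold change -0.26 ± 0.06). CDKN1C, an inhibitor of the same kinases, fell from 1602 and 1654 reads to 1108 and 1111 (log2 fold change -0.57 ± 0.07), and E2F8 fell by 0.39. In DNA replication and in mitosis the shares called were 3.85% of 52 and 3.17% of 63 genes, under the 6.69% of all genes, with TK1 (0.29) and ESPL1 (0.27) higher and ORC6 (-0.36) and SPC25 (-0.23) lower. Of apoptosis regulators BIRC7 rose with few reads (from 6 and 4 reads to 19 and 18, a ratio of 3.67 with a 95% interval of 1.79 to 8.27), CASP8 rose by 0.44 and CFLAR by 0.24, and the death inducer BCL2L11 fell by 0.28. Of the MYC network 1 of 18 genes was called, MXD1 at -0.48. CCND1, CDKN1C and MXD1 stayed called with either shMETTL14 library left out.

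Signaling genes moved in both directions. Of growth factors and their receptors, 4 of 34 tested members rose and 6 fell (median log2 fold change 0.028). These were 11.8% and 17.6% of the list, beside 3.43% and 3.26% of all genes. EREG and AREG, both ligands of the EGF receptor, were among those that fell. EREG fell from 2849 and 2022 reads to 1209 and 1428 (log2 fold change -0.89 ± 0.10), and AREG fell from 433 and 346 reads to 260 and 304 (log2 fold change -0.48 ± 0.12). Without shCTR library 1 EREG was -0.65 and AREG -0.33. BMP7 rose from 61 and 76 reads to 156 and 129 (log2 fold change 1.04 ± 0.19), and EPOR, the erythropoietin receptor, rose by 0.40, or 0.26 without shCTR library 1 (not called). The receptor BMPR1A fell by 0.32 and TGFBR1 rose by 0.27. Of interleukins, chemokines and their receptors, 5 of 37 tested members rose and 1 fell (median log2 fold change 0.089). These were 13.5% and 2.7% of the list, beside the same shares of all genes. IL1R1 rose from 76 and 62 reads to 164 and 160 (log2 fold change 1.22 ± 0.18), IL10RA rose from 394 and 425 reads to 809 and 739 (log2 fold change 0.90 ± 0.09), and TNFRSF21 fell from 140 and 172 reads to 89 and 86 (log2 fold change -0.85 ± 0.16). IL16, a T-cell attractant counted in the family of interleukin names, rose from 979 and 961 reads to 1999 and 1998 (log2 fold change 1.03 ± 0.07). SOCS1 and CISH, inhibitors that are transcribed when STAT factors are active, rose: SOCS1 from 208 and 269 reads to 450 and 469 (log2 fold change 0.93 ± 0.12), and CISH from 2283 and 2276 reads to 3013 and 3231 (log2 fold change 0.44 ± 0.06). Of 35 genes of BCR-ABL and STAT5 signaling, CISH was the one higher and PIK3CB, at -0.28, the one lower, a share of 5.71% beside the 6.69% of all genes. EREG, IL1R1, IL10RA, TNFRSF21, IL16, SOCS1 and CISH stayed called with either shMETTL14 library left out.

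In the MAP kinase cascade 4 of 47 genes rose and 3 fell, or 8.51% and 6.38% beside 3.43% and 3.26% of all genes. DESeq2 called 2 of them higher and 1 lower. MAP4K4 rose from 4288 and 3741 reads to 5231 and 5207 (log2 fold change 0.37 ± 0.06), and MAP3K3 fell from 798 and 854 reads to 491 and 581 (log2 fold change -0.64 ± 0.09). MAP3K10, MAPKAPK3 and MAPKAPK2 rose by 0.37, 0.31 and 0.24, and MAPK11 and MAP3K4 fell by 0.33 and 0.23. Without shCTR library 1, MAP3K10 was 0.24, MAPKAPK3 0.19, MAPKAPK2 0.16 and MAP3K4 -0.17, none of them called. MAPK11 was -0.24 without shCTR library 2 (not called). SPRY4, a feedback inhibitor given next, was 0.37 without shCTR library 1. Of the feedback inhibitors of the pathway, PTPRR, a tyrosine phosphatase of ERK, rose from 360 and 314 reads to 634 and 653 (log2 fold change 0.92 ± 0.09), SPRY4 rose from 297 and 332 reads to 422 and 456 (log2 fold change 0.47 ± 0.11), and DUSP8, a phosphatase of JNK and p38, fell from 170 and 153 reads to 93 and 91 (log2 fold change -0.82 ± 0.15). Of RAS-type GTPases and their exchange factors MRAS fell from 502 and 490 reads to 286 and 274 (log2 fold change -0.84 ± 0.09), RASGRP2 fell by 0.26 and RAPGEF1 rose by 0.26. Immediate early genes, which serum and stress switch on within minutes, had 1 of 25 higher and 3 lower: JUN fell from 892 and 987 reads to 588 and 665 (log2 fold change -0.60 ± 0.11), ZFP36L1 fell by 0.30, FOS is described with the genes that rest on 1 library, and BTG2 rose from 321 and 298 reads to 459 and 525 (log2 fold change 0.66 ± 0.10). MAP4K4, MAP3K3, PTPRR, DUSP8, MRAS and BTG2 stayed called with either shMETTL14 library left out.

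Interferon-stimulated genes also split: 5 of 36 tested members rose and 2 fell (median log2 fold change 0.082). These were 13.9% and 5.56% of the list, beside 3.43% and 3.26% of all genes. RSAD2, the antiviral enzyme viperin, rose from 27 and 22 reads to 53 and 62 (log2 fold change 1.21 ± 0.29), and its neighbour CMPK2 rose from 299 and 294 reads to 398 and 418 (log2 fold change 0.45 ± 0.10). SAMD9L rose from 38 and 35 reads to 66 and 73 (log2 fold change 0.91 ± 0.24), SAMD9 rose from 207 and 143 reads to 294 and 282 (log2 fold change 0.71 ± 0.14), and PARP14 rose by 0.24. IFITM3, which blocks viral entry, fell from 1074 and 1177 reads to 653 and 687 (log2 fold change -0.76 ± 0.08, adjusted p = 4.54e-06), and IFIT1, which binds viral RNA ends, fell from 67 and 45 reads to 31 and 26 (log2 fold change -0.98 ± 0.26). Single controls moved some of these values: SAMD9 was 0.97 without shCTR library 1 (called) and 0.48 without shCTR library 2 (called), and IFIT1 was -0.69 without shCTR library 1 (not called) and -1.22 without shCTR library 2 (called). Of 17 sensors of double-stranded RNA edgeR and DESeq2 called none, with 2 at an unadjusted p under 0.05. DESeq2 called 2 of the interferon genes higher and 1 lower, and 1 of the 7 calls held with either shMETTL14 library left out. Of the class I list the NKG2D ligands ULBP2 and ULBP1 rose, ULBP2 from 307 and 294 reads to 550 and 519 (log2 fold change 0.82 ± 0.10) and ULBP1 by 0.36, while the immunoproteasome subunit PSMB9 fell from 303 and 317 reads to 183 and 208 (log2 fold change -0.68 ± 0.13). IFITM3 and ULBP2 stayed called with either shMETTL14 library left out.

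Promoters of the interferon genes are shown because members that rose and members that fell could be compared for the interferon-stimulated response element. Its core was searched as TTTC, any 2 bases and TTTC again, on both strands. It occurs in 16 of the 28 matched promoters of the list, against 2.74% of the promoters of tested genes and 3.65% of all promoters. It was in both members that fell and in 2 of the 5 that rose. The 140 bases before the start are given for these 4, with matches in capitals (GAAA, any 2 bases and GAAA where the match is on the other strand).
IFIT1, chr10:89392483-89392622, plus strand: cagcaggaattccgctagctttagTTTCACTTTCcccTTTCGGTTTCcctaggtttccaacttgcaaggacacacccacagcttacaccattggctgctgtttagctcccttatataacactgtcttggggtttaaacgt
IFITM3, chr11:320861-321000, minus strand: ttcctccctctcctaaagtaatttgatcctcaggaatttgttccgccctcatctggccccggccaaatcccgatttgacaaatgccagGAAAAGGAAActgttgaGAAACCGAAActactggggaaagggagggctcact
PARP14, chr3:122680699-122680838, plus strand: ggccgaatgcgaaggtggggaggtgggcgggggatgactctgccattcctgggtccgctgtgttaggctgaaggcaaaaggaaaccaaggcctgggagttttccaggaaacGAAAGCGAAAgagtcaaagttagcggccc
SAMD9, chr7:93117980-93118119, minus strand: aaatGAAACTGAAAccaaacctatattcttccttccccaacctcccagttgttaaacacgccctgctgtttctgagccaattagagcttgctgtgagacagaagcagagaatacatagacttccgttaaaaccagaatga
IFIT1 and IFITM3 have 2 matches each, and PARP14 and SAMD9 have 1. The windows of RSAD2, CMPK2 and SAMD9L hold no match to these letters.

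Of 39 histone genes 3 rose and none fell by edgeR or DESeq2 (0 at an unadjusted p under 0.05), or 7.69% called beside the 6.69% of all genes. H1-2 and H2BC5 rose by 0.19 and 0.28, and the third, H4C14, rests on 1 library. With GC and length trends removed 7 rose. Of histone methyltransferases and demethylases EED, of the Polycomb complex PRC2, fell from 1413 and 1235 reads to 1047 and 1008 (log2 fold change -0.38 ± 0.07), and DNMT3B, a DNA methyltransferase kept in that list, fell by 0.25. Splicing factors of the SR and hnRNP families had 1 of 43 called, HNRNPLL, which fell from 2652 and 2424 reads to 1852 and 1901 (log2 fold change -0.45 ± 0.07). Of mRNA decay factors 1 of 61 rose and 4 fell (8.2% called beside 6.69% of all genes, and 2 lower with library size alone), PATL1 by 0.29 and the exosome subunits EXOSC8 and EXOSC2 by 0.24 and 0.23. Of 425 zinc finger genes of the ZNF family 17 fell and 5 rose, or 4% and 1.18% beside 3.26% and 3.43% of all genes, and 12 fell and 6 rose with library size alone. Their median was -0.061 (-0.047 with GC and length trends removed). ZNF331 fell from 28 and 24 reads to 8 and 10 (log2 fold change -1.53 ± 0.37), ZNF91 fell from 80 and 72 reads to 40 and 47 (log2 fold change -0.82 ± 0.22) and ZNF670 fell from 310 and 275 reads to 196 and 187 (log2 fold change -0.62 ± 0.12), while ZNF672 rose from 1011 and 1048 reads to 1479 and 1462 (log2 fold change 0.50 ± 0.07). HNRNPLL and ZNF672 stayed called with either shMETTL14 library left out.

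Among transporters, ABCG2, the drug and urate exporter, rose from 345 and 312 reads to 676 and 755 (log2 fold change 1.11 ± 0.10, adjusted p = 4.68e-07). Solute carriers had 8 of 238 higher and 6 lower, a share of 5.88% that is near the 6.69% of all genes. SLC6A19, a neutral amino acid transporter, rose from 425 and 492 reads to 905 and 850 (log2 fold change 0.92 ± 0.09), and the monocarboxylate family member SLC16A9 fell from 176 and 154 reads to 99 and 86 (log2 fold change -0.85 ± 0.16). Of 34 kinesins KIF5A, KIF21B, KIF3B and KIF13A rose, by 0.41, 0.36, 0.30 and 0.25, and KIF7 fell by 0.51. Of 20 tubulins 2 rose, TUBB1 and TUBA1A (by 0.32), and 2 fell. TUBB2B fell from 538 and 509 reads to 309 and 302 (log2 fold change -0.79 ± 0.12), and TUBE1 fell by 0.39, or -0.17 without shCTR library 1 (not called). ARHGAP22, which switches off RAC, fell from 392 and 456 reads to 221 and 222 (log2 fold change -0.95 ± 0.12), and its relative ARHGAP25 rose from 145 and 136 reads to 255 and 222 (log2 fold change 0.75 ± 0.14). SEMA7A, a membrane semaphorin that carries a blood group, rose by 0.61, and TRIM71, a stem cell ubiquitin ligase, fell from 154 and 155 reads to 96 and 98 (log2 fold change -0.68 ± 0.15). ABCG2, SLC6A19, TUBB2B and ARHGAP22 stayed called with either shMETTL14 library left out.

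Further families held single large changes. Of 166 TMEM-named genes 6 rose and 4 fell, a share of 6.02% that is near the 6.69% of all genes. Beside TMEM233 and with few reads, TMEM176A rose from 5 and 2 reads to 14 and 16 (log2 fold change 2.05 ± 0.59), a ratio of 4.25 with a 95% interval of 1.83 to 11.5. TMEM45A rose from 13 and 10 reads to 24 and 29 (log2 fold change 1.18 ± 0.35). Of 124 FAM-named genes 6 rose and 3 fell, a share of 7.26% that is also near that of all genes. The adhesion-type membrane protein FAM171B rose from 34 and 17 reads to 53 and 56 (log2 fold change 1.08 ± 0.29), or 1.64 without shCTR library 1 (called) and 0.69 without shCTR library 2 (not called). ARHGAP28 rose from 19 and 16 reads to 39 and 39 (log2 fold change 1.14 ± 0.31), and TRIM2, a ubiquitin ligase of neurons, rose from 112 and 80 reads to 155 and 175 (log2 fold change 0.77 ± 0.17). KCNN4, a calcium-gated potassium channel known from red cells, rose from 124 and 101 reads to 160 and 168 (log2 fold change 0.53 ± 0.16), but lost its call once GC and length trends were removed. Of 24 cancer-testis antigens CSAG2 rose and 3 fell, with PAGE1 from 63 and 42 reads to 29 and 25 (log2 fold change -0.97 ± 0.28). This list had 16.7% called, beside the 6.69% of all genes. ALDH1L1, of folate metabolism, rose by 0.60 and ALDH6A1, of valine breakdown, fell by 0.46. No protocadherin, phosphodiesterase or calcium channel gene was called by edgeR or DESeq2 among 6, 13 and 8 tested, with 2, 3 and 1 at an unadjusted p under 0.05. TMEM176A, TMEM45A, FAM171B, ARHGAP28, TRIM2, KCNN4, PAGE1, ALDH1L1 and ALDH6A1 each lost the call when 1 or the other shMETTL14 library was left out.

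Markers of other lineages were examined as whole lists. Of 12 tested myeloid and granulocyte markers 3 rose and none fell by edgeR or DESeq2 (1 at an unadjusted p under 0.05): LYZ, lysozyme, rose from 830 and 840 reads to 1177 and 1273 (log2 fold change 0.54 ± 0.08), CD33 rose from 345 and 384 reads to 594 and 636 (log2 fold change 0.74 ± 0.10), and CEBPD rose by 0.42. The share called higher was 25%, beside 3.43% of all genes. Most of the 12 did not rise: 5 had a positive and 7 a negative log2 fold change, with a median of -0.059. The summed level of the list was 212 to 236 CPM in shCTR and 250 to 254 CPM in shMETTL14 libraries, and its defining markers MPO, ELANE and CD14 had at most 3 reads in a library. This sum includes the reads of LYZ, so it does not show a rise of the list as a whole. Of T and NK markers PRF1, perforin, rose from 24 and 16 reads to 44 and 47 (log2 fold change 1.17 ± 0.30), and UBASH3A rose from 635 and 630 reads to 960 and 860 (log2 fold change 0.51 ± 0.09). That list summed to 39.7 to 41.7 CPM and 54.4 to 60.1 CPM, with CD3E and CD2 at most at 2 reads. Of epithelial markers KRT19 rose from 1310 and 1389 reads to 1956 and 1808 (log2 fold change 0.47 ± 0.07) and EPCAM fell from 1083 and 1042 reads to 799 and 822 (log2 fold change -0.40 ± 0.07), beside the falls of SDC1 and TMPRSS11F. No B-cell or endothelial and stromal marker was called by edgeR or DESeq2, with 0 of 2 and 0 of 5 at an unadjusted p under 0.05. Of neuronal markers SYP, synaptophysin, fell from 250 and 236 reads to 160 and 147 (log2 fold change -0.67 ± 0.12), and of hepatic ones AFP rose as given above, while that list summed to 34.4 to 36.1 CPM in shCTR and 48.1 to 49.4 CPM in shMETTL14 libraries with TTR at 0 reads. Whether RNA of another cell type had a part in these values was not tested. Of progenitor markers the receptor KIT fell from 283 and 223 reads to 167 and 184 (log2 fold change -0.54 ± 0.14), or -0.38 without shCTR library 1. LYZ, CD33, KRT19 and SYP stayed called with either shMETTL14 library left out.

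Each call was checked for its dependence on a single library. The change of each shMETTL14 library was taken against the mean of the shCTR libraries (log2 CPM with a prior count of 2), and a call was said to rest on 1 shMETTL14 library when the smaller of the 2 changes, in the direction of the call, was less than 0.5 times the larger. This held for 27 of the 1184 called genes (2.28%), 15 higher and 12 lower, with library 1 the larger in 15 and library 2 in 12. The same rule turned to the controls marked 98 calls (8.28%), and 1059 calls rested on neither. The median change of the genes called higher was 0.463 in library 1 and 0.466 in library 2, and of those called lower -0.37 and -0.347.

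H4C14 and HIST2H2AA3, 2 genes of the replication-dependent histones on chromosome 1, were high in shMETTL14 library 2 alone. H4C14 had 23 and 28 reads in shCTR against 22 and 462 in shMETTL14 cells, and its single-library changes were -0.20 and 4.07 on the log2 scale. HIST2H2AA3 had 6 and 7 reads in shCTR against 10 and 68 in shMETTL14 cells. Both have near-identical copies, and mRNAs of this class normally lack the poly(A) tail that the oligo(dT) step selects. DDT, D-dopachrome tautomerase, was high in library 1 alone, with 44 and 32 reads in shCTR against 287 and 65 in shMETTL14 cells, and it too has a close paralog. ABCB10P3, a pseudogene, was high in the same library, with 294 and 347 reads in shCTR against 836 and 402 in shMETTL14 cells. Among less extreme cases LRIG1, a negative regulator of receptor kinases, had 11 and 12 reads in shCTR against 21 and 38 in shMETTL14 cells, and THRSP, of fat synthesis, had 29 and 23 reads in shCTR against 42 and 67 in shMETTL14 cells. FOS, the partner of JUN in the AP-1 factor, had 192 and 133 reads in shCTR against 114 and 66 in shMETTL14 cells, so that its fall rests on library 2, while the fall of JUN did not rest on 1 library. EMID1 had 144 and 183 reads in shCTR against 94 and 125 in shMETTL14 cells, the pseudogene HNRNPA1P10 had 1001 and 909 reads in shCTR against 506 and 857 in shMETTL14 cells and RAB32 had 219 and 211 reads in shCTR against 269 and 337 in shMETTL14 cells. With 1 library left out, H4C14 was at -0.23 without shMETTL14 library 2 (not called), HIST2H2AA3 at 0.60 without shMETTL14 library 2 (not called), DDT at 0.76 without shMETTL14 library 1 (not called) and FOS at -0.52 without shMETTL14 library 2 (not called) on the log2 scale. In the same way EMID1 was at -0.39 without shCTR library 2 (not called), ABCB10P3 at 0.31 without shMETTL14 library 1 (not called), HNRNPA1P10 at -0.17 without shMETTL14 library 1 (not called), LRIG1 at 0.85 without shMETTL14 library 2 (not called), THRSP at 0.67 without shMETTL14 library 2 (not called) and RAB32 at 0.31 without shMETTL14 library 2 (not called). In the plot by library these genes lie outside the wedge that the other called genes fill.

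**Figure D4:**
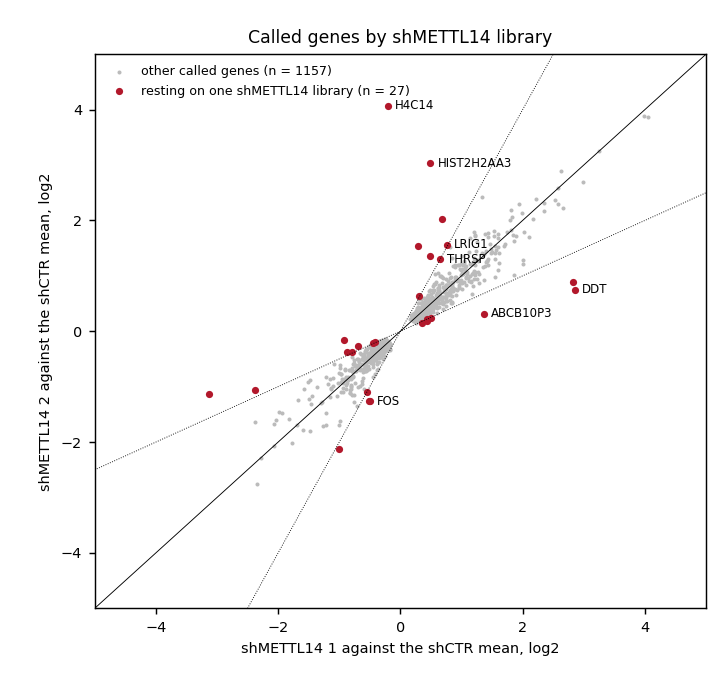
Log2 change of shMETTL14 library 1 (horizontal) and library 2 (vertical) against the mean of the shCTR libraries for the 1184 called genes, with the line of equal change (solid) and lines where 1 change is 0.5 times the other (dotted). The 27 genes that rest on 1 shMETTL14 library are red. H4C14 and HIST2H2AA3 lie high on the vertical axis alone, and DDT far out on the horizontal axis.

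Some called genes were neighbours on a chromosome. With a gap of at most 300 kb between gene starts, 31 runs of at least 3 genes called in 1 direction were found, 17 higher and 14 lower, holding 102 of the 1107 called genes with a position. In 8 of them every tested gene between the ends was called, and each of these 8 holds 3 tested genes, the fewest the rule allows. Longer runs held many other genes: 3 of 20 tested genes were called higher in that from GET3 on chromosome 19. In that from SPRYD3 on chromosome 12, 5 of 20 were called higher, and PRR13 between them was called lower (-0.24). Whether there are more runs than the number of calls alone would give was not tested. On chromosome 7 SAMD9, SAMD9L and HEPACAM2, which follow each other on the minus strand over 127.0 kb (hg38, 93099513 to 93226524), rose by 0.71, 0.91 and 2.31. Further along the same chromosome (116210493 to 116561184) TES, CAV2 and CAV1 fell by 0.24, 0.31 and 1.54. On the X chromosome (15319451 to 15556529) PIGA, of GPI anchor synthesis, fell by 0.40, PIR by 0.62 and the kinase gene BMX by 1.77, the last resting on shMETTL14 library 1. On chromosome 15 (81000944 to 81314058) TLNRD1, CFAP161 and IL16 rose by 0.45, 0.94 and 1.03. On chromosome 12 (47075707 to 47369935) the adhesion protein AMIGO2 rose from 602 and 646 reads to 1127 and 1099 (log2 fold change 0.82 ± 0.08), PCED1B rose from 553 and 624 reads to 1061 and 1073 (log2 fold change 0.84 ± 0.08), and the noncoding PCED1B-AS1 and LINC02416 rose as given above, while 2 of the 6 tested genes there were not called. By chromosome, over the autosomes and X, the share of genes called ran from 4.12% on chromosome 16 to 10.5% on chromosome 21, and medians of the log2 fold change from -0.0315 to 0.0387.

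**Figure D5:**
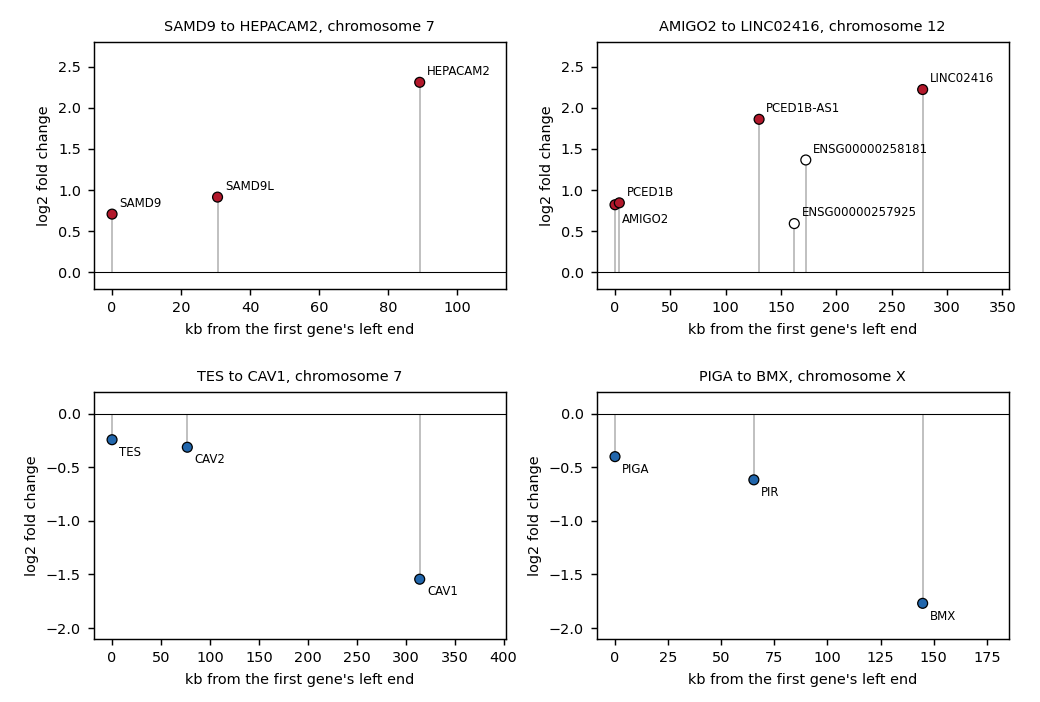
Log2 fold change of shMETTL14 against shCTR (vertical) for tested genes in 4 runs of neighbours, by distance in kb from the left end of the first gene. Filled points were called, red higher and blue lower, and open points were not. HEPACAM2 at 2.31, CAV1 at -1.54 and BMX at -1.77 are the extreme members of their runs.

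The called genes differed from the rest in sequence and level. The median GC content of a gene's longest transcript was 51.5% among genes called higher, 44.4% among those called lower and 48.2% among all genes tested, with values for 94.2% of the genes tested. Their median lengths were 3742, 3461 and 2983 nt, and their median levels were 24.6, 54.8 and 15.5 CPM. The median SE of the log2 fold change was 0.097, 0.0761 and 0.114 in the same order. Genes with more reads are called more readily, so these differences in length and level cannot be told apart from the way calls are made. When smooth trends with GC content and length were taken out of each library, 822 genes were called higher and 848 lower, and 1154 of the 1184 calls were kept. The promoters of genes called higher and lower had median GC contents of 65.0% and 64.3%, against 65.0% for tested genes. The palindrome TGACGTCA of cyclic AMP response elements was in 1.63% of promoters of genes called higher (7 of 430) and 5.64% of those called lower (23 of 408), against 3.27% of those of tested genes. It had the largest relative difference of the several motifs searched. The AP-1 letters TGANTCA went the other way, at 5.58%, 3.43% and 4.45%. The GC box GGGCGG was in 67.9%, 66.4% and 69.0%.

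METTL14 knockdown was set against METTL3 knockdown by the direct test between the shMETTL14 and shMETTL3 libraries, since both share the same controls. This test called 2148 genes, 12.1% of those tested, and among the genes called against shCTR it called 229 of the 607 higher and 225 of the 577 lower ones. The same shMETTL14 libraries chose those genes and enter the direct test. Their share is raised by that choice and cannot be compared with the 12.1%. METTL14 and METTL3 themselves differed as the labels say, METTL14 by -0.89 (adjusted p = 7.81e-07) and METTL3 by 0.73 (adjusted p = 2.56e-06) on the log2 scale, shMETTL14 minus shMETTL3. Of the largest changes SLIT2 was -2.90 (adjusted p = 4.76e-06), with -2.78 against shCTR in shMETTL14 and 0.12 in shMETTL3 cells. SDC1 was -2.05, with -1.97 and 0.08, and OVCH1 was 4.99, with 4.58 and -0.41. In CD36 the difference was 0.84, with 1.07 and 0.24. ALAS2 rose against shCTR in both, by 1.19 and 1.77, and was -0.59 in the direct test (adjusted p = 6.4e-05). For FN1, NDRG1, IFITM3 and PTPRR the direct test did not call a difference, at 0.09, 0.14, 0.21 and 0.02, with adjusted p-values of 0.643, 0.441, 0.125 and 0.912. By list the direct test called 16 of the 28 red cell membrane genes, 11 of the 21 megakaryocyte genes, 2 of the 82 cytosolic ribosomal proteins and 2 of the 63 mitosis genes.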

How the data were processed

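The authors counted reads per gene with HTSeq 0.6.1 on hg38, per the submitters' processing notes, and deposited raw read counts for 61661 identifiers in 6 libraries. The aligner, the annotation release and the strand setting are not given in the sources used here, so reads of a gene and its antisense partner may not be told apart. Symbols were matched to 56558 identifiers from a gene name table and to 497 more from the annotation, and 986 identifiers had no annotation.

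Counts of all 6 libraries were fitted together by group with edgeR 4.0.16 (R 4.3.3), with TMM factors, a minimum count of 10 (filterByExpr), the quasi-likelihood test and Benjamini-Hochberg adjustment over 17686 genes. A gene was called at an adjusted p under 0.05. With 2 libraries a group, an exact permutation test of a single gene cannot reach this threshold. The fit was tested on simulated data with 2-fold changes, shMETTL14 against shCTR. Of changed genes with a mean count of at least 50, 97.6% were recovered, and 3.56% of calls were false. The simulated spread depended on level alone and was the same in every group. In the data the median absolute log2 difference between replicates was 0.146 in shCTR and 0.104 in shMETTL14 libraries. The simulated share of false calls therefore does not give that of the 1184 calls.

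The members and gene lists were chosen with earlier results of these data known. Named genes are the 15 largest rises and falls among called genes with a mean of at least 1 CPM and no overlap of groups, the 10 largest differences in CPM in each direction, up to 4 called members per list and direction, the m6A genes and the genes resting on 1 library. ERMAP, GYPC, GYPE, RHD, SPTB, ANK1, PARP14, GAS5 and the promoters shown were named after their values were seen. Runs of neighbours were searched after calling. Alternatives were DESeq2 1.42.0, its size factors, library size alone, no low-count filter, the 4 libraries alone, a replicate block, a fold threshold (glmTreat), removal of GC and length trends (mgcv 1.9.3), and leaving out each library. Same-numbered libraries did not deviate together (correlations of deviations from group means 0.0614, 0.00511 and -0.02). Some genes are not reported here.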

Additional observations from a re-analysis of the deposited data

Results flagged for a closer look

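Genes are listed here that were called against shCTR in opposite directions in shMETTL14 and shMETTL3 cells, and for which the direct test between both knockdowns passed with a difference of at least 1 on the log2 scale. The shared shCTR libraries enter both changes but not the direct difference. The shMETTL14 and shMETTL3 libraries enter both the choice of genes and the direct test, and passing that test was part of the rule. The adjusted p-values below are therefore no separate support for these genes.
CFAP95 fell by 1.51 in shMETTL14 and rose by 2.06 in shMETTL3 cells, a difference of -3.57 (adjusted p = 2.52e-12). PCAT14 fell by 1.39 in shMETTL14 and rose by 1.39 in shMETTL3 cells, a difference of -2.78 (adjusted p = 1.41e-07). IFIT1 fell by 0.98 in shMETTL14 and rose by 0.81 in shMETTL3 cells, a difference of -1.79 (adjusted p = 3.66e-05). PDGFB fell by 0.77 in shMETTL14 and rose by 0.95 in shMETTL3 cells, a difference of -1.72 (adjusted p = 1.03e-09). THBS1 fell by 1.04 in shMETTL14 and rose by 0.65 in shMETTL3 cells, a difference of -1.69 (adjusted p = 5.42e-09). CCND1 fell by 0.97 in shMETTL14 and rose by 0.45 in shMETTL3 cells, a difference of -1.41 (adjusted p = 5.11e-09). DUSP8 fell by 0.82 in shMETTL14 and rose by 0.55 in shMETTL3 cells, a difference of -1.375 (adjusted p = 1.57e-06). SYP fell by 0.67 in shMETTL14 and rose by 0.59 in shMETTL3 cells, a difference of -1.265 (adjusted p = 3.83e-07). MRAS fell by 0.84 in shMETTL14 and rose by 0.37 in shMETTL3 cells, a difference of -1.205 (adjusted p = 2.97e-08).
HEPACAM2 rose by 2.31 in shMETTL14 and fell by 0.84 in shMETTL3 cells, a difference of 3.15 (adjusted p = 2.96e-10). LINC00261 rose by 1.63 in shMETTL14 and fell by 0.86 in shMETTL3 cells, a difference of 2.49 (adjusted p = 1.03e-09). UBASH3A rose by 0.51 in shMETTL14 and fell by 1.75 in shMETTL3 cells, a difference of 2.26 (adjusted p = 7.42e-12). ABCG2 rose by 1.11 in shMETTL14 and fell by 0.96 in shMETTL3 cells, a difference of 2.07 (adjusted p = 8.97e-11). LYZ rose by 0.54 in shMETTL14 and fell by 1.43 in shMETTL3 cells, a difference of 1.97 (adjusted p = 6.07e-12).
Falls in shMETTL14 cells among them include the secreted platelet proteins THBS1 and PDGFB and the G1 cyclin CCND1, and rises include the exporter ABCG2 and lysozyme (LYZ). With 2 libraries a group, single outlying samples within a group could not be looked for.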

How the results depend on the processing

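Named called genes kept their direction in each of the 12 alternatives that gave them a value, with 1 exception: H4C14, at 3.23 in the main test, was at -0.23 without shMETTL14 library 2 (adjusted p = 0.856) and at 4.16 without library 1. The number of genes called moved more. Of 1184 calls (607 higher, 577 lower) in the main test, DESeq2 gave 772 (361 higher), the test without a low-count filter 766 (387 and 379), and glmTreat with a threshold of 0.5 on the log2 scale 87 (61 and 26). Leaving out 1 library gave 341 to 1913 calls, 196 to 951 higher and 145 to 962 lower. The lowest counts came without shMETTL14 library 1 (341) or 2 (397) and the highest without shCTR library 2 (1913), and the lone library of a group was assumed to vary like the other groups. The split between higher and lower moved with scaling, with 743 and 443 calls (62.6% higher) by library size alone against 51.3% higher with TMM. DESeq2 size factors (1199), the 4 libraries alone (990) and GC and length trends removed (1670) gave counts within 1.5 times the main one. Against shMETTL3 the 2148 calls became 1327 with DESeq2, 267 with glmTreat and 942 to 2953 with 1 library left out.

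METTL14 lay between -0.82 and -0.71 with 1 library left out, and at -0.76 missed the threshold in glmTreat alone (adjusted p = 0.13). Of 306 named called genes, 59 lost their call with DESeq2, which gave no adjusted p for another 27, 32 with the 4 libraries alone, which had no value for 1, 22 with library size alone, 78 without the filter, 4 without GC and length trends and 266 with glmTreat. Without shMETTL14 library 1 181 lost it, without library 2 171, without shCTR library 1 100 and without shCTR library 2 43. The replicate block gave 1459 calls, with all 1184 among them, but the replicate numbers did not pair the libraries, so this fit was not used. The cause of these changes was not tested. Depth limits the genes of low count: those under the minimum count of 10 were not tested.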
